A study of Homo sapiens with 4 samples.

Results

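The 9 gene symbols of the glucose-responsive arrestin pathway are described here, out of 25277 symbols in the table. They are the alpha-arrestins TXNIP, ARRDC1, ARRDC2, ARRDC3 and ARRDC4, the glucose-sensing factors MLXIP, MLX and MLXIPL, and the glucose-responsive zinc finger factor KLF10. All 9 symbols were found in the table. They were chosen by name with their hairpin over control ratios already known, TXNIP having one of the lowest ratios in the line Mino, so the hairpin values of these 9 genes are given as a description with no test.

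The study measured gene expression by RNA sequencing in Z138 and Mino, established human cell lines of mantle cell lymphoma, a B cell cancer. In each line a stably transfected culture with a Tet-On hairpin against BTK (shBTK) was set against one with a control vector (sc4). BTK is the kinase that relays B cell receptor signals. All 4 cultures, the controls included, had doxycycline for 48 hours and were grown in RPMI1640 with fetal bovine serum. There were 4 libraries, 1 per line and vector, with no second hairpin analysed here, so effects of the hairpin and of BTK loss cannot be told apart. What the sc4 vector expresses, and whether a culture came from 1 clone, is not stated in the labels.

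Cells read their glucose supply through a pair of proteins. The factor MondoA (gene MLXIP) or, in liver, its relative ChREBP (gene MLXIPL) binds its partner MLX, moves to the nucleus when glucose-6-phosphate is plentiful, and turns on genes that carry a carbohydrate response element. TXNIP is the best known of these targets and ARRDC4 another. Both encode alpha-arrestins, adaptor proteins that bring membrane proteins to ubiquitin ligases, and both reduce glucose uptake. TXNIP also binds thioredoxin.

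The promoters of TXNIP and ARRDC4 are shown because these genes had the lowest Mino ratios, of log2(FPKM + 1), among the 9. Each window runs from 250 bases before to 50 bases after the annotated start, 5′ to 3′ on the gene's strand, from RefSeq on GRCh38.p14. TXNIP lies at chr1:145996530-145996829 on the minus strand and ARRDC4 at chr15:97960453-97960752 on the plus strand. Capitals mark matches to CACGNG on either strand, the single unit of the carbohydrate response element.

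TXNIP: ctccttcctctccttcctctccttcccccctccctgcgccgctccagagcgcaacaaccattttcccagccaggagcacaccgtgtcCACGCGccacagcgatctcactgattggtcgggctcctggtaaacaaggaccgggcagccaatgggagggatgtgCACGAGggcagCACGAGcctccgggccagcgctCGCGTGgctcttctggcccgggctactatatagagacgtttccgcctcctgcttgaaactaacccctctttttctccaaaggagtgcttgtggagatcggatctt

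ARRDC4: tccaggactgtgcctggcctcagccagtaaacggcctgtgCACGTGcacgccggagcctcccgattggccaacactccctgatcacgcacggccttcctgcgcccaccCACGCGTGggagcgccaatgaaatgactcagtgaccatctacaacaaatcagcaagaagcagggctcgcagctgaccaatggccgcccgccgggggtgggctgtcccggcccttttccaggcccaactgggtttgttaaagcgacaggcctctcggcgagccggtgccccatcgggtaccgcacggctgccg

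Windows were found for 8 of the 9 genes, the other being KLF10. Motifs were searched on both strands, and their letters were set after these sequences had been read. In the TXNIP window 4 CACGNG units were found, and 2 of them, at -88 to -83 and -77 to -72 from the start, lie 5 bases apart. This arrangement, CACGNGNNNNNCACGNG, was found in 20 of 35114 promoter windows (0.0570%), and among the members in TXNIP alone. Since the TXNIP sequence had been read first, its presence there is not a finding. Only paired units pointing the same way were searched, so pairs facing each other are not in this count. ARRDC4 had 3 CACGNG matches, of which one at -210 to -205 is a full E-box (CACGTG, found in 7.26% of windows) and the other 2 overlap at -142 to -135. At least 1 CACGNG was found in 30.5% of all windows.

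CCAAT boxes, the letters bound by NF-Y, were found in both genes. TXNIP had 2, both among its CACGNG units, and ARRDC4 had 3, 1 among its units and 2 nearer the start, whereas 10.8% of all windows had 2 or more. TXNIP also held GTAAACA, a forkhead factor core found in 3.42% of windows, at -124 to -118. A second TXNIP start had none of these motifs. Of the others, MLX had 1 E-box and 1 CCAAT box, ARRDC2 had 3 CACGNG units at its first start and 1 CCAAT box at its second, ARRDC3 had 1 CCAAT box at its first start and 1 unit and 1 GTAAACA at its second, ARRDC1 and MLXIP had 1 CCAAT box each, and MLXIPL had none. A match describes the letters and is not a site of binding.

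**Figure D1:**
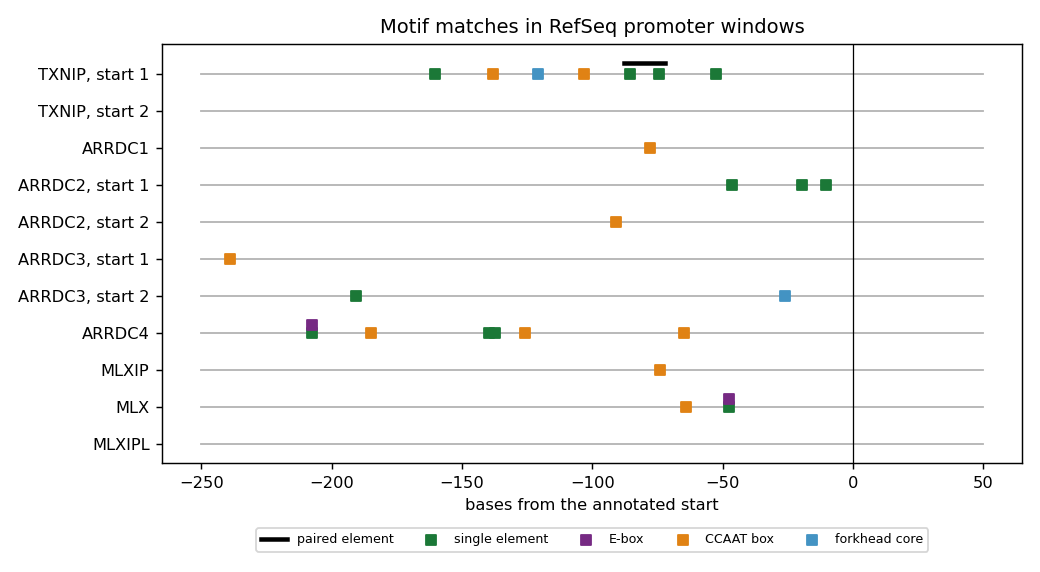
Positions of motif matches in the RefSeq promoter windows of 8 members, in bases from the annotated start (0 to the right of the upstream sequence), 1 row per start. The paired element, drawn as a black bar, is seen at the first TXNIP start only, and TXNIP and ARRDC4 are the members with more than 1 CCAAT box in a window.

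BTK, the target, was lower in the hairpin library of both lines. BTK was at 12.4 FPKM (fragments scaled by transcript length and by mapped fragments) in the Z138 shBTK and 51.0 in the Z138 control library, and at 9.84 FPKM in the Mino shBTK and 37.0 in the Mino control library. The 4 columns summed to between 669013 and 740192 FPKM, with 14953 to 16007 symbols above 0; read depth is unknown. The B cell receptor gene CD79A (557 to 744 FPKM) and the mantle cell lymphoma marker SOX11 (19.8 to 23.7) were present throughout. Cyclin D1 (CCND1) was at 600 and 591 FPKM in the Z138 shBTK and control libraries and at 2.62 and 3.18 in those of Mino, and CD5 at 0.0531 and 0.0751 FPKM in those of Z138 and 1.70 and 2.33 in those of Mino. Of 9 markers of other cell types, FCGR3A and HBB were listed at 0 in all 4 libraries, and the highest values belonged to EPCAM (7.56 FPKM, Mino) and COL1A1 (4.55 FPKM, Mino). In Z138 the highest was the T cell marker CD3E, at 2.07 FPKM in the shBTK and 1.69 in the control library. In such bulk RNA, fewer expressing cells and less RNA per cell cannot be told apart.

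TXNIP, the thioredoxin-binding alpha-arrestin, was at 79.4 FPKM in the Z138 shBTK and 56.4 in the Z138 control library. In Mino it was at 22.2 FPKM in the shBTK and 111 in the control library. The Mino hairpin culture thus had the lowest TXNIP level of the 4 and the Mino control the highest, and both Z138 cultures lay between. Relative to its control, TXNIP stood at 141% in the Z138 hairpin library and at 20.0% in the Mino hairpin library.

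ARRDC4, an alpha-arrestin induced by glucose like TXNIP, was at 2.19 FPKM in the Z138 shBTK and 1.37 in the Z138 control library. In Mino it was at 0.366 FPKM in the shBTK and 1.85 in the control library. Its level was far below that of TXNIP, but its value relative to control was close to it, at 160% in Z138 and 19.8% in Mino. The ratio of TXNIP to ARRDC4 FPKM was 60.8 in the Mino shBTK and 60.2 in the Mino control library, and 36.2 and 41.2 in the Z138 shBTK and control libraries. At these low values ARRDC4 rests on few fragments, whose number is not known.

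KLF10, a transcriptional repressor induced by glucose and by TGF-beta, was at 14.9 FPKM in the Z138 shBTK and 9.98 in the Z138 control library. In Mino it was at 11.7 FPKM in the shBTK and 21.1 in the control library. These are 150% and 55.4% of the control values.

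On the scale of log2(FPKM + 1), the ratio of hairpin to control was 0.49 in Z138 and -2.27 in Mino for TXNIP, 0.43 and -1.06 for ARRDC4, and 0.54 and -0.80 for KLF10. All 3 were thus higher in the Z138 hairpin culture and lower in the Mino hairpin culture than in the control of that line. The added 1 understates the ARRDC4 values: with 0.1 added instead, its ratios were 0.64 in Z138 and -2.06 in Mino.

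The filter on low values (a 4-library mean of 1 FPKM or more) was passed by 8 of the 9 members. Of these, 3 were at least 1.5-fold lower in Mino, where 1.24% of the 11484 symbols tested were, and 0 were higher, where 0.923% were. In Z138, 0 of the 8 were past 1.5-fold on the log2(FPKM + 1) scale, with 0.94% of all symbols higher and 0.819% lower. ARRDC4 was past it by its FPKM alone, at 160% of control, and with 0.1 added. At 1.2-fold, 9.98% of symbols were higher in Z138, 8.72% lower in Mino, and 1.33% (153 symbols) both, among them TXNIP, ARRDC4 and KLF10. Nothing is read from these counts, since the genes were chosen with their ratios known. In order of the difference between the 2 responses, taken as Z138 minus Mino, TXNIP was number 19, ARRDC4 number 30 and KLF10 number 38 of the 11484 tested symbols. Without the 334 symbols listed at 0 in any library they were number 1, 9 and 17 of 11150. Nothing is read from these places either, since they order the ratios known when the genes were chosen. Each line had 1 library per vector, so these differences (2.76, 1.49 and 1.34 on the log2 scale) have no replicate check.

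**Figure D2:**
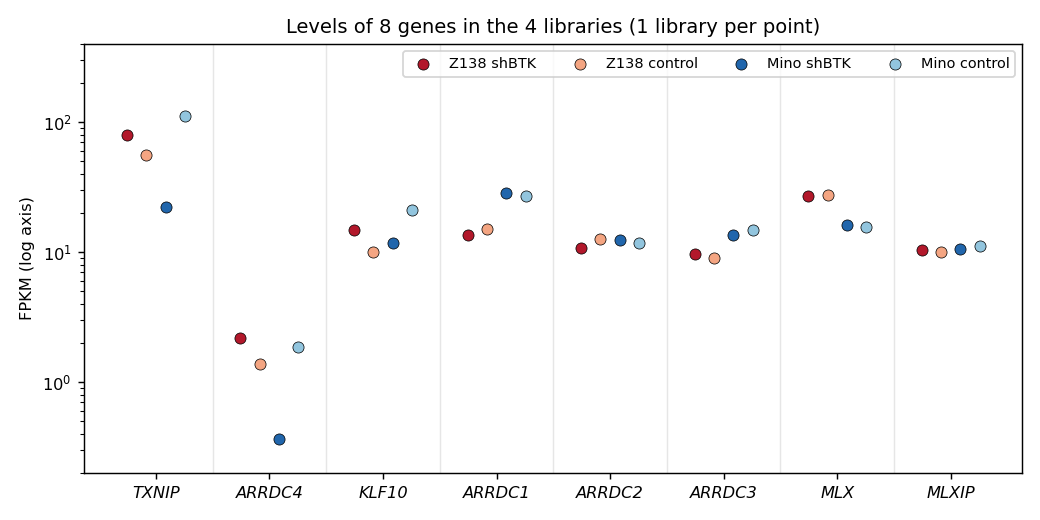
FPKM of 8 members (log axis) in the Z138 shBTK, Z138 control, Mino shBTK and Mino control libraries, 1 point per library. TXNIP runs from 22.2 to 111 FPKM and its lowest point is the Mino shBTK library, as it is for ARRDC4, whereas the 4 points of MLXIP lie between 10.0 and 11.1 FPKM.

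**Figure D3:**
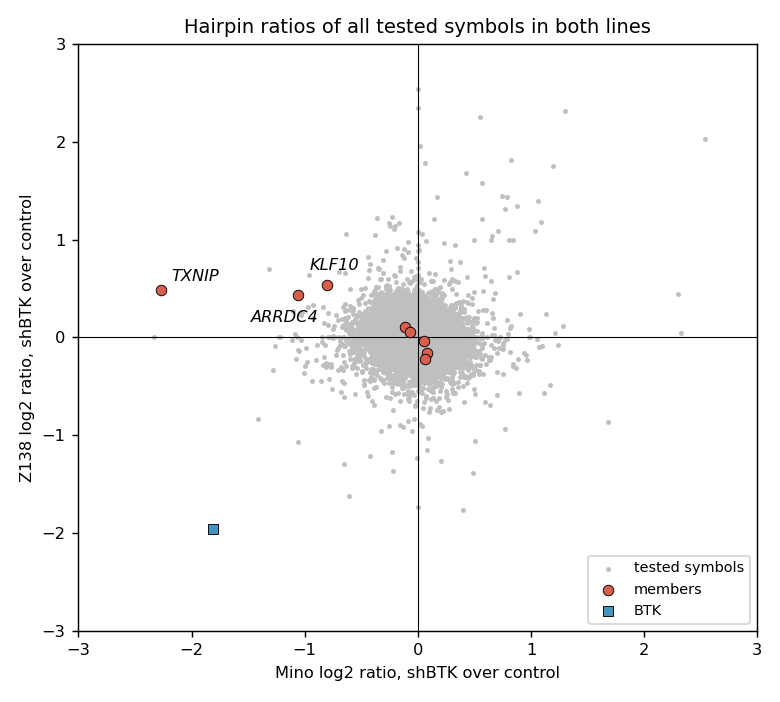
Log2 ratio of shBTK over control, of (FPKM + 1), in Z138 (vertical) against Mino (horizontal) for 11484 tested symbols (grey), 8 members (red) and BTK (blue square); 60 symbols lie outside the axes, which end at 3 either way. TXNIP, ARRDC4 and KLF10 lie at the upper left, BTK at the lower left and the other 5 members near the centre.

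In Z138 the ratios of all genes went with GC content (Spearman rho -0.57 across 10483 genes that share the same 2 libraries), and in Mino little (rho 0.11). The longest transcripts of TXNIP, ARRDC4 and KLF10 have 43.9%, 43.4% and 47.2% GC, below the median of 48.7% over tested symbols. After removal of the GC and length trends the Z138 ratios were 0.40, 0.33 and 0.49, and the Mino ratios -2.25, -1.04 and -0.79. The direction in each line was the same with and without the correction.

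The glucose sensors themselves were nearly level between hairpin and control. MLXIP, which encodes MondoA, was at 10.5 FPKM in the Z138 shBTK and 10.0 in the Z138 control library, and at 10.5 in the Mino shBTK and 11.1 in the Mino control library. MLX, the partner that MondoA and ChREBP need to bind DNA, was at 26.8 and 27.5 FPKM in the Z138 shBTK and control libraries, and at 16.3 and 15.6 in those of Mino. Log2 ratios ran from -0.04 to 0.06 in Z138 and from -0.07 to 0.05 in Mino over both genes. MLXIPL was listed at 0 in both Z138 libraries and the Mino shBTK library and at 0.0153 FPKM in the Mino control, so of the 2 sensors only MLXIP was measurably expressed, and MLXIPL was not tested.

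ARRDC1, ARRDC2 and ARRDC3 differed less between hairpin and control than TXNIP. ARRDC1, an adaptor in the budding of vesicles from the plasma membrane, was at 13.5 FPKM in the Z138 shBTK and 15.2 in the Z138 control library, and at 28.6 in the Mino shBTK and 27.0 in the Mino control library. ARRDC2, a little studied member, was at 10.7 and 12.6 FPKM in the Z138 shBTK and control libraries and at 12.3 and 11.7 in those of Mino. ARRDC3, which lowers the surface level of adrenergic receptors and integrins, was at 9.75 and 8.996 FPKM in the Z138 shBTK and control libraries and at 13.6 and 14.8 in those of Mino. On the log2(FPKM + 1) scale all 3 were within 1.2-fold of control in both lines, as were MLX and MLXIP, making 5 of 8 members, beside 70.7% of all tested symbols. Without the GC and length correction, ARRDC3 had the direction of TXNIP in each line (0.10 in Z138 and -0.12 in Mino). ARRDC1 (-0.16 and 0.08) and ARRDC2 (-0.22 and 0.06) had the opposite direction. The antisense gene ARRDC3-AS1 was at 0.0964 FPKM or less in each library, and the sources used here do not say whether the counting used strand.

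Within each line, the share of TXNIP in the family was higher in the library with more TXNIP. Between lines it did not follow the level, since the Mino control library had the most TXNIP but not the highest share. Of the summed FPKM of TXNIP and ARRDC1 to ARRDC5 (ARRDC5 itself 0.0725 FPKM or less), TXNIP made up 68.7% in the Z138 shBTK and 59.6% in the Z138 control library. In Mino it made up 28.8% in the shBTK and 66.7% in the control library. Without TXNIP the family summed to 36.1 and 38.2 FPKM in the Z138 shBTK and control libraries and to 54.9 and 55.5 in those of Mino.

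**Figure D4:**
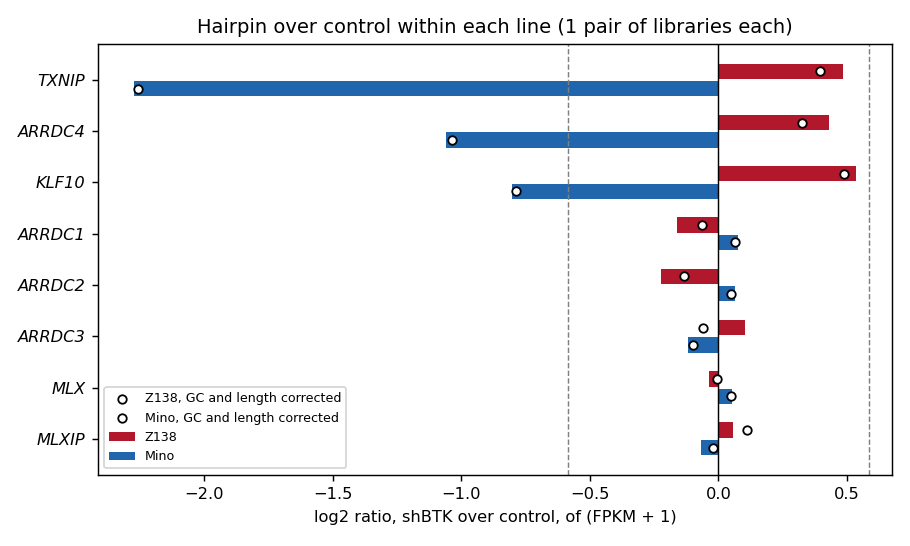
Log2 ratio of shBTK over control, of (FPKM + 1), for 8 members in Z138 (red bars) and Mino (blue bars), 1 pair of libraries each; open circles show the ratio after removal of GC and length trends and dashed lines mark 1.5-fold. TXNIP, ARRDC4 and KLF10 have red bars to the right (0.43 to 0.54) and blue bars to the left (-2.27 to -0.80), and the other 5 stay between the dashed lines.

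Levels in order, by the mean of the 4 libraries, were TXNIP, MLX, ARRDC1, KLF10, ARRDC2, ARRDC3, MLXIP, ARRDC4 and MLXIPL. ARRDC2, ARRDC3 and MLXIP, at 8.996 to 14.8 FPKM, overlapped one another, and KLF10 overlapped its neighbours on both sides. MLX and ARRDC1 changed places with the line, averaging 27.2 and 14.3 FPKM in Z138 and 15.9 and 27.8 FPKM in Mino. TXNIP was the highest of the 9 in every library except the Mino shBTK library, where ARRDC1 was higher. Only ARRDC4 and MLXIPL were below the other 7 in every library.

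The difference between the lines was not used to choose the genes, and it was tested with limma. The fit removes a hairpin effect shared by both lines, so the error left is the part of the response that they do not share. Both lines differed over most of the transcriptome, with 67.4% of 11484 symbols past an adjusted p of 0.05, 28.7% higher and 38.8% lower in Z138. Of the 8 members 3 passed. The error of this test comes from the difference in hairpin response between the lines, which was known when the genes were chosen. It is large for TXNIP, ARRDC4 and KLF10 and smaller for ARRDC1, ARRDC3 and MLX. Neither the share of members that passed nor the passing of a single member is therefore read as a result. Their p-values are given as description. ARRDC1 averaged 14.3 FPKM in Z138 and 27.8 in Mino (log2 difference -0.91, SE 0.13, adjusted p = 0.00044 in limma). ARRDC3 averaged 9.37 FPKM in Z138 and 14.2 in Mino (log2 difference -0.55, SE 0.14, adjusted p = 0.00776). MLX averaged 27.2 FPKM in Z138 and 15.9 in Mino (log2 difference 0.73, SE 0.13, adjusted p = 0.00112). Each of these had the same direction in the control pair and in the hairpin pair.

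TXNIP had a log2 difference of 0.41 between the lines (SE 0.50, adjusted p = 0.491 in limma), the wide SE coming from its opposite responses. TXNIP also changed order with the vector. It was lower in Z138 than in Mino among control libraries (-0.97) and higher among hairpin libraries (1.79). ARRDC4 had -0.26 and 1.23 and KLF10 -1.01 and 0.33 in the same 2 comparisons. ARRDC2 (-0.04, SE 0.14) and MLXIP (-0.07, SE 0.13) had the smallest differences. For ARRDC4 (0.48, SE 0.30, adjusted p = 0.184) the call turned with the scaling: with each library centred on its median, a step that moves the lines by 0.16 against each other, the difference was 0.64 with an adjusted p of 0.0164, and over 7 alternatives the adjusted p ran from 0.0164 to 0.34.

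Genes around the pathway were then examined in 8 lists of 105 genes, of which 78 were tested. In limma, with line and hairpin as additive terms, 14 of 11484 symbols (0.122%) passed for the hairpin, 0.061% higher and 0.061% lower. Of the 78, 0 passed in either direction, which says little beside so small a share. The hairpin term averages the lines and takes their difference as error, so it could hardly find opposite responses like those of TXNIP. At an unadjusted p under 0.05 in limma there were 2 of 78, HK2 and SCD, beside 320 of all 11484, a similar share that singles out neither gene. Without the mean-variance trend 0 of 78 passed, beside 14 of 11484. None of the 78 was 1.2-fold higher in Z138 and 1.2-fold lower in Mino at once, beside 1.33% of all symbols. In Mino 2 of 78, SCD and KLF11, were past 1.5-fold, both lower, beside 1.24% of all symbols lower and 0.923% higher. Nothing is read from these 2. List medians ran from -0.02 to 0.04 in Z138, beside 0.03 over all tested symbols, and from -0.20 to 0.10 in Mino, beside -0.01.

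Glucose uptake and phosphorylation supplies the sugar phosphate that MondoA senses, and 13 of 17 genes were tested, with medians of 0.00 in Z138 and -0.15 in Mino. Hexokinase 2 (HK2), which phosphorylates glucose, was at 13.3 FPKM in the Z138 shBTK and 15.7 in the Z138 control library, and at 13.7 in the Mino shBTK and 20.8 in the Mino control library (mean log2 ratio -0.39, SE 0.14, adjusted p = 1.00 in limma). Hexokinase 1 (HK1) had log2 ratios of 0.01 in Z138 and -0.38 in Mino. The glucose transporter gene SLC2A1, whose protein TXNIP binds and removes from the cell surface, had log2 ratios of 0.01 in Z138 and -0.17 in Mino. SLC2A3 was at 4.26 and 3.41 FPKM in the Z138 shBTK and control libraries and at 0.0115 and 0.0413 in those of Mino. SLC2A6 had the highest mean ratio of this list, with 0.00 in Z138 and 0.38 in Mino.

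The thioredoxin system, the redox partner of TXNIP, had 16 of 17 genes tested and medians of -0.02 in Z138 and 0.00 in Mino. Thioredoxin (TXN) was at 194 and 201 FPKM in the Z138 shBTK and control libraries and at 142 and 145 in those of Mino. TXNIP FPKM was 40.9% of TXN FPKM in the Z138 shBTK and 28.1% in the Z138 control library, and 15.6% in the Mino shBTK and 77.0% in the Mino control library. Thioredoxin reductase 1 (TXNRD1) had log2 ratios of 0.19 in Z138 and -0.32 in Mino, glutaredoxin (GLRX) 0.41 and 0.01, and peroxiredoxin 2 (PRDX2) -0.37 and -0.01.

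The MLX and MAX network of related E-box factors had 9 of 10 genes tested and medians of 0.01 in Z138 and -0.20 in Mino. MYC was at 439 and 407 FPKM in the Z138 shBTK and control libraries and at 46.6 and 63.9 in those of Mino. Its partner MAX had log2 ratios of -0.02 in Z138 and 0.30 in Mino, and the repressor MNT -0.14 and -0.20. Genes that ChREBP drives in liver had 9 of 16 tested, with medians of 0.02 in Z138 and -0.16 in Mino. The fatty acid desaturase gene SCD was at 26.9 and 30.3 FPKM in the Z138 shBTK and control libraries and at 33.3 and 50.9 in those of Mino (mean log2 ratio -0.38, SE 0.14, adjusted p = 1.00 in limma), and the G protein regulator gene RGS16 had ratios of 0.36 and 0.07.

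Ubiquitin ligases of the NEDD4 family bind alpha-arrestins, and ITCH degrades TXNIP. In this list 7 of 9 were tested, with medians of 0.04 in Z138 and 0.01 in Mino. ITCH had log2 ratios of 0.21 in Z138 and -0.06 in Mino, and NEDD4L -0.07 and -0.33. AMPK phosphorylates TXNIP and marks it for degradation. Of 11 genes for its subunits, upstream kinases and their partner proteins, 9 were tested, with medians of -0.01 in Z138 and 0.10 in Mino. The AMPK catalytic subunit gene PRKAA1 had ratios of 0.35 and 0.00, and CAMKK2, an upstream kinase, -0.10 and -0.06.

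Other genes of the arrestin fold had 5 of 9 tested, with medians of 0.02 in both lines. The retromer subunit gene VPS26A had log2 ratios of 0.22 in Z138 and -0.02 in Mino, and RGP1 -0.01 and -0.32. Relatives of KLF10 had 10 of 16 tested, with medians of 0.01 in Z138 and -0.10 in Mino. KLF16 had the lowest mean ratio of those at 5 FPKM or more (-0.40 and -0.17) and KLF12 the highest (0.18 and -0.03).

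**Figure D5:**
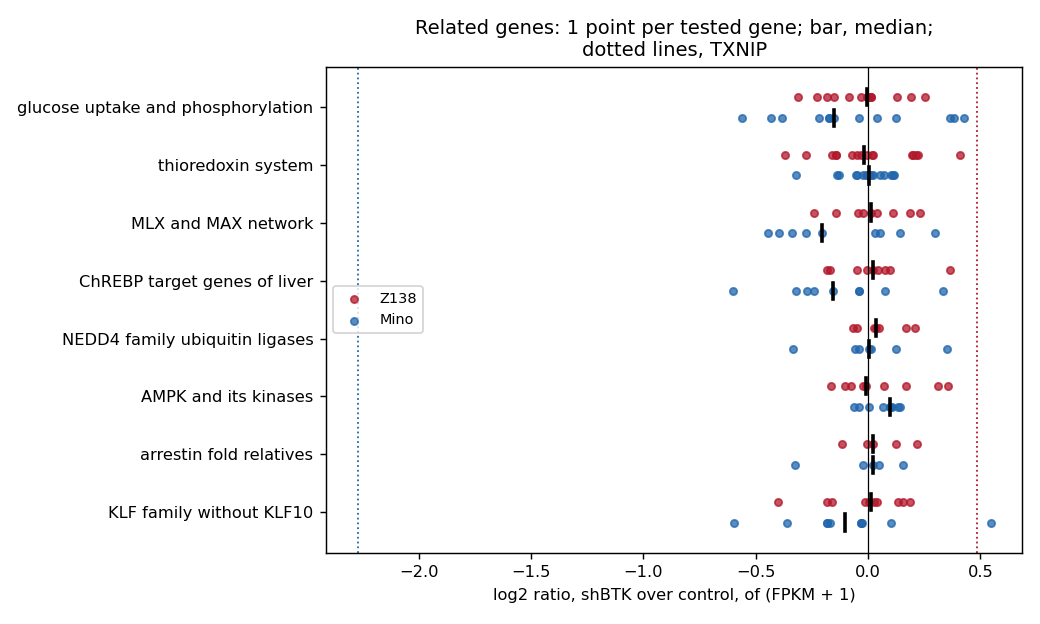
Log2 ratio of shBTK over control, of (FPKM + 1), in Z138 (red) and Mino (blue) for 78 tested genes in 8 related lists, 1 point per gene, with list medians as black bars. Dotted lines mark TXNIP (0.49 in Z138, -2.27 in Mino), and no listed gene comes near the Mino line.

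Genes with a profile like that of TXNIP were sought by the Euclidean distance between centred log2(FPKM + 1) values over the 4 libraries, among 7756 named symbols averaging 5 FPKM or more. The nearest were NDUFA4L2 (distance 1.10), a mitochondrial protein gene induced by hypoxia, then CLECL1 (1.19), PRDM1 (1.198), NIN (1.21) and EGR1 (1.22). The members ARRDC4 and KLF10, left out of this search, lay at 0.86 and 1.28. These distances are not ranked against the others. Both genes were chosen with their ratios known, and ARRDC4, averaging 1.44 FPKM, is below the level searched. NDUFA4L2 was at 18.5 FPKM in the Z138 shBTK and 20.4 in the Z138 control library, and at 14.4 in the Mino shBTK and 31.1 in the Mino control library. It thus shared the low Mino hairpin value but not a higher value in the Z138 hairpin library.

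Nearest to ARRDC4 were PRDM1 (0.39), the plasma cell factor gene, EGR1 (0.40), an early response gene, NOTCH2 (0.41), CLECL1 (0.45) and MYO1G (0.46). Their Mino log2 ratios ran from -0.68 to -0.50, against -1.06 for ARRDC4, or -2.06 with 0.1 added. The added 1 shrinks the low values of ARRDC4 and so brings these genes nearer. In Z138 their ratios ran from -0.07 (CLECL1) to 0.40 (NOTCH2), and CLECL1 and MYO1G (-0.02) were not higher in the hairpin library. NOTCH2, a receptor gene, was at 25.5 FPKM in the Z138 shBTK and 19.0 in the Z138 control library, and at 14.1 in the Mino shBTK and 20.5 in the Mino control library. EGR1 was at 25.5 and 21.5 FPKM in the Z138 shBTK and control libraries and at 14.98 and 22.8 in those of Mino. With 4 libraries, nearness of profile is a description of these values only.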

How the data were processed

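The authors deposited 1 table of FPKM values with 1 column per library, per the file headers. TopHat and hg19 are named in the submitters' processing notes, and RNA was made into libraries with an Illumina TruSeq kit per the labels' protocols. The program that made FPKM and its annotation are not stated there or in the file. Read depth is unknown, so no counting interval is given.

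Values were analysed as log2(FPKM + 1), which understates changes of low genes. The fit across symbols used limma 3.58.1 in R 4.3.3 (line and hairpin as additive terms, mean-variance trend, Benjamini-Hochberg over 11484 symbols averaging 1 FPKM or more). It leaves 1 residual degree of freedom, to which limma adds 6.88 prior degrees of freedom drawn from all tested symbols. The SE and p-value of a gene thus rest largely on the spread of other symbols. Within that limit, the error behind the p-values of both terms is the difference in hairpin response between the lines. A difference between hairpin and control cultures that both lines share does not enter it. Line is the block that pairs the libraries, each control being of the same cell line. Within a line, 1 library per vector allows no test.

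GC content and length came from the longest transcript per symbol in GENCODE release 29, for 94.0% of tested symbols, with cubic spline trends removed per line. The members and lists were chosen with earlier results of these data known. Named genes were the members, BTK, the 5 nearest profiles, the extremes of each list at 5 FPKM or more, and 10 pathway genes fixed by name, with cell type markers beside them. KLF11 and the genes under other observations were chosen after their values were seen.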

Additional observations from a re-analysis of the deposited data

Results flagged for a closer look

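For 3 genes the hairpin library lay on opposite sides of its control in the 2 lines, by at least 1.2-fold each way. TXNIP had a response of 0.49 in Z138 and -2.27 in Mino, a difference of 2.76 on the log2 scale. ARRDC4 had 0.43 and -1.06, a difference of 1.49, and KLF10 had 0.54 and -0.80, a difference of 1.34. With 1 library per line and vector the difference was not tested.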

How the results depend on the processing

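The hairpin test called 14 symbols, against 2 without a filter on low values, 9 at a mean of at least 5 FPKM, 28 without symbols listed at 0, 42 with libraries centred on their medians, 7 with the GC and length correction and 0 without the line term (no replicate block), where 9 had an unadjusted p under 0.05. Symbols past 1.5-fold numbered 202 in Z138 and 248 in Mino, against 477 and 434 with 0.1 added in place of 1, and 116 and 147 at a mean of at least 5 FPKM. The ARRDC4 ratio in Mino was -2.06 with 0.1 added, against -1.06. In Z138 the TXNIP ratio ran from 0.40 to 0.49 and in Mino from -2.32 to -2.25 over the alternatives, and ARRDC4 and KLF10 likewise stayed above 0 in Z138 and below 0 in Mino. The Z138 ratio of ARRDC3 was -0.058 with the GC and length correction, against 0.10. The line differences of ARRDC2 and MLXIP, which did not pass, changed sign with median centring, to 0.11 and 0.089. Those of ARRDC1, ARRDC3 and MLX passed in all 8 alternative fits, which use the same 4 libraries, so the passing is description only. The line test called 7745 symbols, and every alternative was within 1.5 times that count. Causes were not tested. Leaving out a library leaves no residual degree of freedom, so it was not run. Depth is unknown, so the precision of the low values of ARRDC4 and MLXIPL cannot be given.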

Other observations

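Besides TXNIP, 13 tested symbols with the same name in RefSeq had the paired element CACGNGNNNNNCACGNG in a promoter window. Their log2 ratios of hairpin over control ran from -0.25 to 0.31 in Z138 and from -0.26 to 0.24 in Mino. Among them were GFPT1, the first enzyme of hexosamine synthesis (0.28 in Z138 and -0.03 in Mino), and P4HA1, a collagen prolyl hydroxylase gene (-0.25 and -0.26). Genes listed here under an older name were not matched, so the count and range leave them out. Among those, ATP5ME was tested as ATP5I, with -0.38 in Z138, below that range, and -0.06 in Mino.

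Of the 153 symbols at least 1.2-fold higher in Z138 and lower in Mino, those with the largest ratios in both lines, members aside and chosen after their values were seen, were FAM65B (0.67 in Z138 and -0.69 in Mino) and the histone genes HIST1H2BD (1.06 and -0.64), HIST1H2BN (0.64 and -0.97), HIST2H2AC (0.50 and -0.51) and HIST1H2AC (0.50 and -0.46). FAM65B, an inhibitor of the small GTPase RhoA, was at 30.5 FPKM in the Z138 shBTK and 18.8 in the Z138 control library, and at 34.7 in the Mino shBTK and 56.8 in the Mino control library. The histone values are uncertain, because reads from their near-identical copies can be split between them. The opposite arrangement, lower in Z138 and higher in Mino at 1.2-fold, was seen in 126 symbols.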
